A study of Mus musculus with 8 samples.

Results

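The 9 genes described here make, store, recover or sense the catecholamines dopamine and noradrenaline: Th, Slc18a2, Slc6a3, Dbh, Slc6a2, Drd1, Drd2, Drd4 and Adra2a. They were chosen by name, each as the row of the deposited table whose symbol matches exactly, and all 9 were found among the 21959 genes listed. Reads of polyadenylated RNA were counted per gene in 8 mouse libraries of wild-type genotype, 4 labelled Model and 4 labelled IsoL. The Model label names PCPA, para-chlorophenylalanine, which blocks tryptophan hydroxylase and so lowers serotonin. The IsoL label names isoliensinine, a plant alkaloid, and the series asks how it acts on sleep. Per the design text the mice were female ICR animals dosed for 7 days, and all received sodium pentobarbital 40 minutes after the last dose. IsoL doses of 12.5, 25 and 50 mg/kg are listed. Neither the sequenced dose nor whether the IsoL mice also received PCPA is stated, so directions are given for IsoL with Model as the reference. The blank and alprazolam groups of the design were not analysed here. The labels do not say that libraries came from separate mice, so the p-values reflect the spread of these libraries alone, and that spread may be technical.

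Dopamine is made from tyrosine by tyrosine hydroxylase and a decarboxylase, packed into vesicles, released, and taken back up by the dopamine transporter. Noradrenaline neurons add dopamine beta-hydroxylase, which converts dopamine to noradrenaline, and use their own transporter. In the brain the cell bodies of most dopamine neurons lie in the ventral midbrain, with smaller groups in the hypothalamus, whereas noradrenaline neurons lie in the hindbrain and send axons forward, with most of their messenger RNA in the cell bodies.

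RefSeq promoters (GRCm38.p6) were found for 8 of the 9 genes by symbol. The 4 printed here belong to the genes on which the results turn: Th, Slc18a2 and Slc6a3 are the abundant dopamine neuron genes, and Dbh is the enzyme gene that was almost unread. Each run is on the gene's own strand, with 250 bases before the annotated start and 10 from the start on. Capitals mark the cAMP response element TGACGTCA, the palindrome that CREB-family factors bind, and the GC box GGGCGG, which Sp-family factors bind, on either strand.
Th, chr7:142899986-142900245, minus strand: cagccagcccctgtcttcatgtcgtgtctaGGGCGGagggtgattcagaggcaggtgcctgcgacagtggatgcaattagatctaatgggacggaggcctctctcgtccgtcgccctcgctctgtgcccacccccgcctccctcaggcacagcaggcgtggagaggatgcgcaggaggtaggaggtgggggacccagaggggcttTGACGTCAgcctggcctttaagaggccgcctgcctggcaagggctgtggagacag
Slc18a2, chr19:59260628-59260887, plus strand: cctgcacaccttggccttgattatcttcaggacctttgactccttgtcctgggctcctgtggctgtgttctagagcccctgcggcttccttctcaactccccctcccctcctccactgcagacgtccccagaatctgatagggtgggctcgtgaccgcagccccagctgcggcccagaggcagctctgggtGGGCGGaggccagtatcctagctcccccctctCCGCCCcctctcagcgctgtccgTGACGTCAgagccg
Slc6a3, chr13:73536497-73536756, plus strand: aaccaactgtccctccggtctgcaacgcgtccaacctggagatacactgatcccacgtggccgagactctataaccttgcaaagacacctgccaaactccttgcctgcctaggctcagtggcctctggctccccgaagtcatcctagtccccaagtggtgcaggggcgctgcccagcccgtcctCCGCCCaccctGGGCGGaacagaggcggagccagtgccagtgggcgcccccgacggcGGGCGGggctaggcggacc
Dbh, chr2:27165257-27165516, plus strand: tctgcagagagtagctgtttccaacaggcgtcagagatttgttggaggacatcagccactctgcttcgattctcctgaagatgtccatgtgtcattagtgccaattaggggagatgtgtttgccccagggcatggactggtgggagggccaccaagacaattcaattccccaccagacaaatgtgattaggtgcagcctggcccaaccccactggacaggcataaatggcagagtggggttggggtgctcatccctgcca

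The full cAMP response element was found in the Th promoter, starting 45 bases before the start, and in the Slc18a2 promoter, starting 4 bases before the start and running across it. The windows of Slc6a3, Dbh, Drd1, Drd2, Drd4 and Adra2a did not hold these letters. Over all 32851 RefSeq promoter windows of 300 bases, 1.79% held it. The GC box occurred 3 times in the Slc6a3 window, at 66, 55 and 9 bases before the start, and was in every one of the 8 genes' windows but that of Dbh, against 35.7% of all windows. In Drd4, 2 of its 3 GC boxes overlap. Searched on both strands as well, TATAAA (13.6% of windows) was in the Adra2a window, CACGTG (7.15%) in those of Slc6a3 and Adra2a, and AAAGGTCA (1.51%) in none of the 8. The motifs were picked after the sequences had been seen, and a match describes letters, not a bound site.

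Levels between genes are compared as deposited FPKM, which scale reads by gene length and by library size. The dopamine transporter gene Slc6a3 was the most abundant of the 9, with a mean of 38.2 FPKM over the 8 libraries (26.5 to 46.3). Th followed at 26.6 FPKM (20.6 to 33.1), and Slc18a2, the vesicular monoamine transporter, at 21.5 FPKM (16.9 to 25.3). Slc6a3 exceeded Th in every library, by 1.29 to 1.73 times. Th and Slc18a2 changed places between libraries, their FPKM ratio of Slc18a2 to Th running from 0.684 to 1.15, and are not separated. The receptor genes lay lower: Drd2 had a mean of 9.53 FPKM (7.53 to 10.6), Adra2a 6.0 FPKM (4.68 to 8.15) and Drd1 1.34 FPKM (1.22 to 1.46). Their order held in each library, with Drd2 1.27 to 1.89 times Adra2a, and Adra2a 3.82 to 5.60 times Drd1. Drd4, Dbh and Slc6a2 came last, at 0.0244, 0.0141 and 0.00935 FPKM, each with at least 1 library at 0, and their order cannot be read from so few reads.

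**Figure D1:**
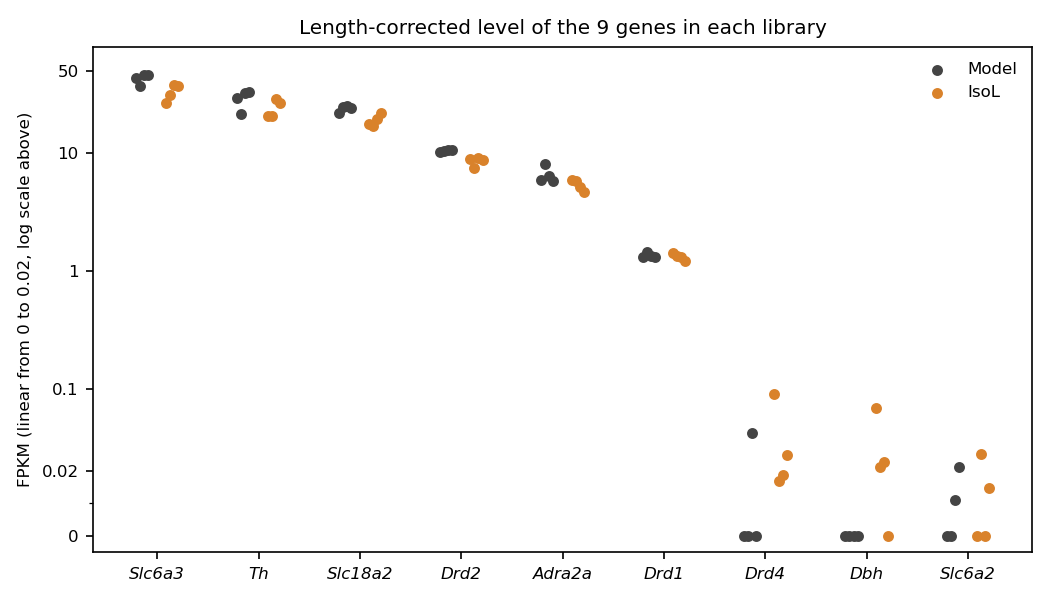
FPKM of the 9 genes in each library, on an axis that is linear from 0 to 0.02 and logarithmic above, with Model and IsoL libraries in separate colours. Slc6a3, Th and Slc18a2 sit between 16.9 and 46.3 FPKM in all 8 libraries, while Drd4, Dbh and Slc6a2 stay below 0.1 FPKM.

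Between the groups, all 6 of the members with enough reads to test had lower mean levels in IsoL than in Model, from 0.769 times the Model level for Slc6a3 to 0.968 times for Drd1. None passed the test across all genes. Genes with a lower fitted level in IsoL made up 50.5% of the 14536 tested, and the median log2 fold change over all tested genes was 0. The median of the 6 members was -0.29. At a Benjamini-Hochberg adjusted p under 0.05 in edgeR's quasi-likelihood test, 0 of the 6 were called, against 0.275% of all tested genes in either direction and 0.158% lower in IsoL. At an unadjusted p under 0.05 there were 4 of the 6 (Slc18a2, Drd2, Slc6a3 and Adra2a), against 13.2% of all. In 2 of the 6, Slc18a2 and Drd2, every IsoL library lay below every Model library, against 4.42% of all tested genes, and 8.48% of all did not overlap in either direction. The count of 40 called genes changed when single libraries were left out: it was 146 without Model 2, 21 without Model 3, 16 without IsoL 3, 13 without Model 1, 9 without IsoL 4, 8 without IsoL 1, and 6 without either Model 4 or IsoL 2. Each of these fits also has fewer libraries, and the cause of the changes was not tested. In this bulk tissue, fewer cells of a type and less RNA per cell cannot be told apart.

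**Figure D2:**
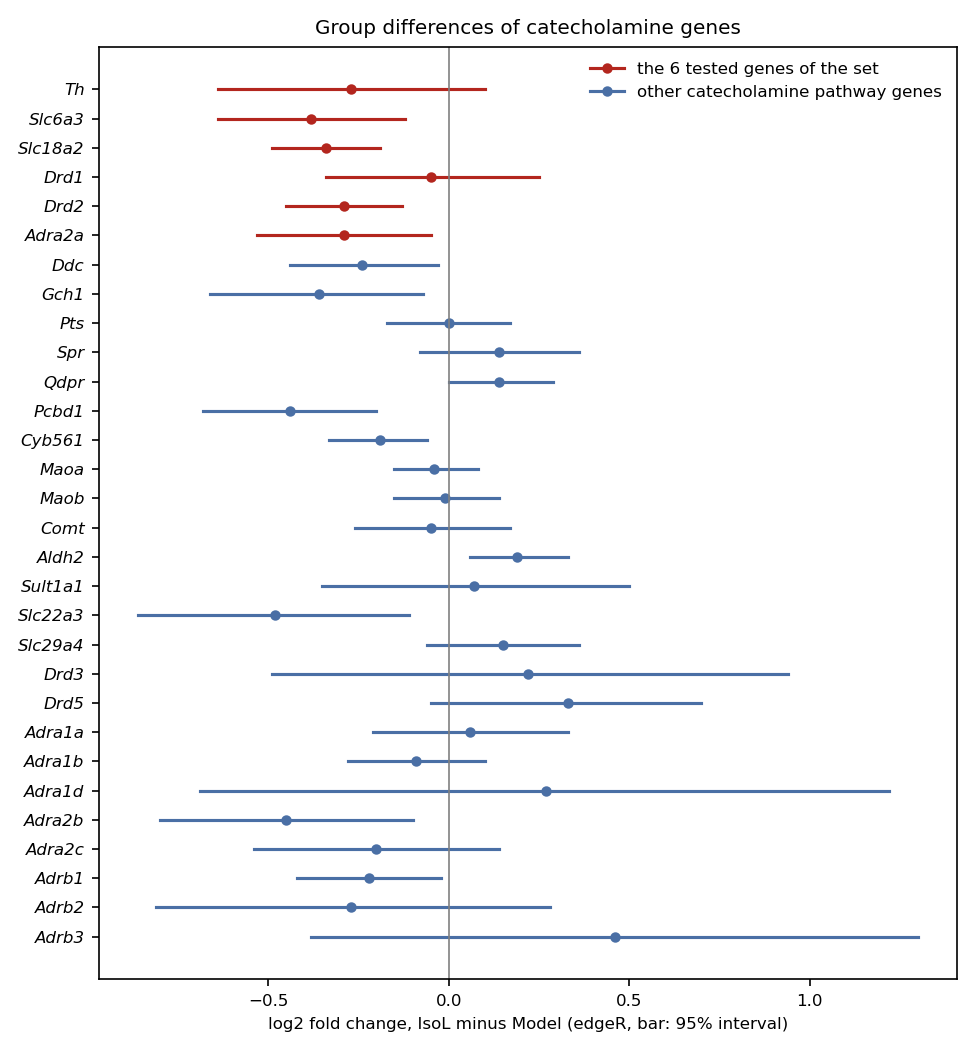
Log2 fold changes (IsoL relative to Model) of the 6 tested members and the tested genes of the 4 pathway lists, with bars for the 95% interval of the edgeR fit. All 6 members lie below 0, and the intervals of Th and Drd1 include 0.

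Th encodes tyrosine hydroxylase, the rate-limiting enzyme of catecholamine synthesis (ENSMUSG00000000214, chromosome 7, 142446489 to 142484865, minus strand; gene positions are as deposited, and the sources used here do not name their build). In CPM, reads per gene scaled with TMM factors to a common library size, it had 70.4, 50.5, 76.3 and 78.5 in Model 1 to 4, and 48.8, 49.8, 67.8 and 61.9 in IsoL 1 to 4. The groups overlapped, because Model 2 was as low as IsoL 1 and 2. The means were 68.9 ± 12.7 CPM in Model and 57.1 ± 9.34 in IsoL (SD, n = 4 each), a log2 fold change of -0.27 (SE 0.16, 95% interval -0.64 to 0.10, edgeR adjusted p = 0.524). This interval covers 0 as well as a larger difference than was seen for any tested member.

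Dbh encodes dopamine beta-hydroxylase (ENSMUSG00000000889, chromosome 2, 27055245 to 27073212, plus strand). It had 0 reads in all 4 Model libraries and 3, 1, 1 and 0 in IsoL 1 to 4. No library exceeded 3 counts, the limit that a count of 0 allows and equal to 0.139 to 0.210 CPM, so no fold is given. Such limits cover counting error only.

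Slc18a2 encodes VMAT2, which loads dopamine, noradrenaline, serotonin and histamine into vesicles (ENSMUSG00000025094, chromosome 19, 59249328 to 59284444, plus strand). It had 116, 128, 131 and 127 CPM in Model 1 to 4 and 93.2, 88.7, 102 and 113 CPM in IsoL 1 to 4. Every IsoL library was below every Model library, with IsoL 4 closest to the Model values. The means were 126 ± 6.45 CPM in the Model group and 99.3 ± 10.7 CPM in the IsoL group (SD, n = 4 each), a 0.792-fold level. Its log2 fold change was -0.34 (SE 0.07, 95% interval -0.49 to -0.19), with an edgeR adjusted p of 0.0687, the smallest of the 6 tested members. DESeq2 (adjusted p = 0.00348) and limma voom (adjusted p = 0.0254) called it, while calling 2% and 1.64% of all genes they tested. Without IsoL 4 it also passed in edgeR, at a log2 fold change of -0.41 (adjusted p = 0.0477), and over the other libraries left out in turn the adjusted p ran up to 0.217. VMAT2 serves serotonin and histamine neurons too, and their part in this difference was not tested. Tph2, the serotonin-making enzyme of the brain, had means of 6.90 and 11.7 CPM, Model first (edgeR adjusted p = 0.794). Its spread was wide in both groups, 1.0 to 14.1 and 2.21 to 21.3. Hdc, the histamine-making enzyme, had 16.1 and 12.0 CPM, a log2 fold change of -0.43 (95% interval -0.98 to 0.13, edgeR adjusted p = 0.497). That interval covers 0 as well as the fold change of Slc18a2.

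Slc6a3 encodes the dopamine transporter, which returns released dopamine to the neuron (ENSMUSG00000021609, chromosome 13, 73684866 to 73726791, plus strand). It had 152, 128, 159 and 159 CPM in Model 1 to 4 and 92.0, 108, 131 and 128 CPM in IsoL 1 to 4. The overlap came from Model 2, which lay level with IsoL 3 and 4, while IsoL 1 and 2 were below every other library. The means were 149 ± 14.7 CPM in Model and 115 ± 18.4 in IsoL (SD, n = 4 each), a log2 fold change of -0.38 (SE 0.12, 95% interval -0.64 to -0.12), the largest in size of the 6. It was not called by edgeR (adjusted p = 0.222) or limma voom (0.117) but was by DESeq2 (0.0255). The ratio of Th to Slc6a3 counts was 0.463, 0.395, 0.481 and 0.494 in Model 1 to 4 and 0.530, 0.462, 0.517 and 0.484 in IsoL 1 to 4, and the groups overlapped.

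Slc6a2 encodes the noradrenaline transporter (ENSMUSG00000055368, chromosome 8, 93686707 to 93728295, plus strand). It had 0, 0, 1 and 2 reads in Model 1 to 4 and 0, 3, 0 and 2 in IsoL 1 to 4. Like Dbh it stayed at or under the 3-count limit in all 8 libraries. Phox2a, a transcription factor that specifies noradrenaline neurons, was as sparse and was read in Model 3 only. Tfap2b, a further factor of those neurons that other brain regions also use, was the exception, averaging 2.06 CPM in the Model libraries and 13.2 CPM in the IsoL ones without overlap (edgeR adjusted p = 0.121).

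Drd1 encodes the D1 dopamine receptor, which raises cyclic AMP (ENSMUSG00000021478, chromosome 13, 54205202 to 54209724, minus strand). It had 4.82, 5.25, 4.80 and 4.82 CPM in Model 1 to 4 and 5.15, 4.87, 4.68 and 4.40 CPM in IsoL 1 to 4. The groups overlapped almost fully. The log2 fold change was -0.05 (SE 0.14, 95% interval -0.34 to 0.25, edgeR adjusted p = 0.914), an interval that still holds a fall of the size seen for Drd2.

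Drd2 encodes the D2 dopamine receptor, which lowers cyclic AMP and also sits on dopamine neurons as an autoreceptor (ENSMUSG00000032259, chromosome 9, 49251927 to 49319477, plus strand). It had 26.8, 26.2, 26.8 and 26.9 CPM in Model 1 to 4 and 22.8, 19.3, 23.0 and 22.3 CPM in IsoL 1 to 4. The Model libraries lay within 1 CPM of each other, and all 4 IsoL libraries were below them. That closeness is narrower than counting error at 383 to 419 reads per Model library, so it may understate the true spread. The means were 26.7 ± 0.329 and 21.9 ± 1.74 CPM (SD, n = 4 each), a log2 fold change of -0.29 (SE 0.07, 95% interval -0.45 to -0.13). It was not called by edgeR (adjusted p = 0.120) or DESeq2 (0.0580) and was just under the threshold in limma voom (0.0451). As FPKM, Drd2 exceeded Drd1 in every library, by 5.65 to 7.97 times, and the ratio of Drd2 to Drd1 counts was 4.99 to 5.59 in Model and 3.96 to 5.07 in IsoL. The difference between the fold changes of the 2 receptors was not tested.

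Drd4 encodes the D4 dopamine receptor (ENSMUSG00000025496, chromosome 7, 140871919 to 140876377, plus strand). It had 0, 0, 2 and 0 reads in Model 1 to 4 and 5, 1, 1 and 2 in IsoL 1 to 4. IsoL 1 alone passed the 3-count limit, and neither a level nor a fold can be given.

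Adra2a encodes the alpha-2A adrenergic receptor, the noradrenaline autoreceptor that also sits on target neurons (ENSMUSG00000033717, chromosome 19, 54032582 to 54037413, plus strand). It had 29.4, 39.2, 30.5 and 28.3 CPM in Model 1 to 4 and 28.9, 28.4, 24.8 and 22.4 CPM in IsoL 1 to 4. Model 2 stood above the other 7 libraries, and the remaining Model libraries overlapped IsoL 1 and 2. The means were 31.8 ± 4.96 and 26.1 ± 3.07 CPM (SD, n = 4 each), a log2 fold change of -0.29 (SE 0.11, 95% interval -0.53 to -0.05, edgeR adjusted p = 0.292). Without Model 2 the log2 fold change was -0.17 (adjusted p = 0.406).

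**Figure D3:**
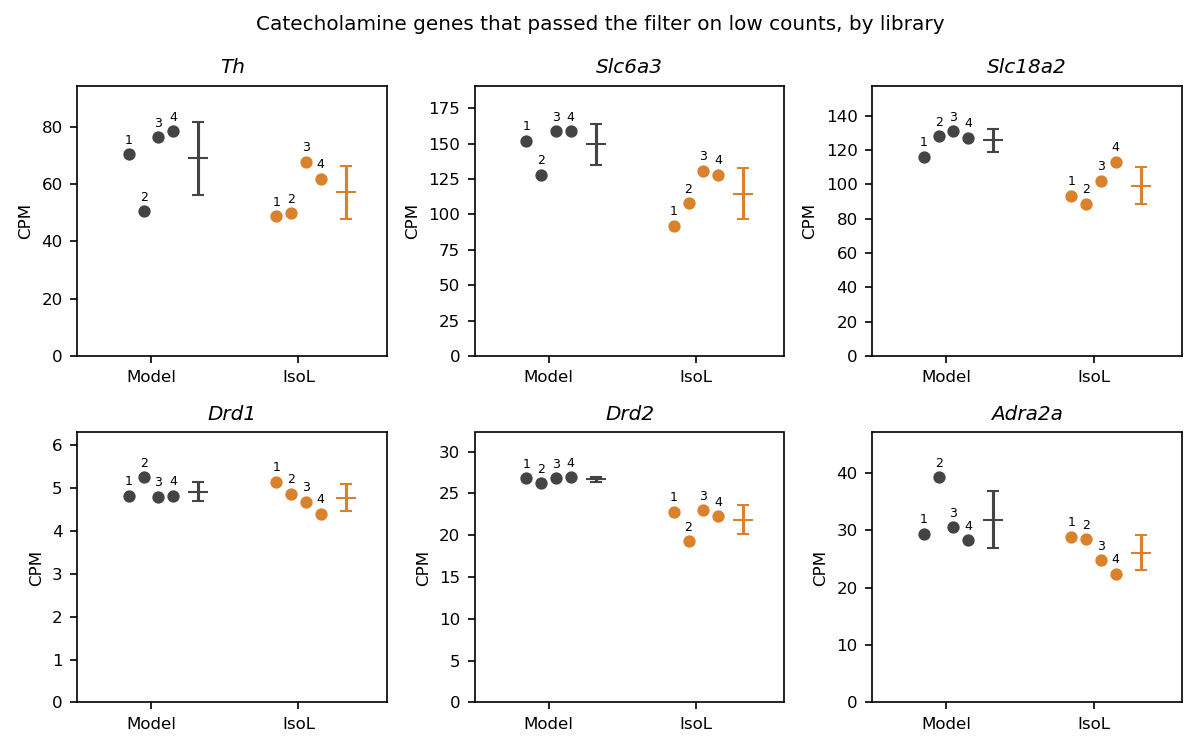
CPM of the 6 tested members in each library, 1 panel per gene, with numbered points for libraries and bars for the group mean ± SD (n = 4). The IsoL points lie below all Model points for Slc18a2 and Drd2 and overlap them for Th, Slc6a3, Drd1 and Adra2a.

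Library-to-library variation within groups was compared for the 15 pairs of tested members, on log2 CPM centred within each group (n = 8 libraries). Th and Slc6a3 varied together, with Pearson's r = 0.905 (exact permutation p = 0.00174 over 576 within-group orders, 0.0261 adjusted over the 15 pairs) and Spearman's rho = 0.905 (exact permutation p = 0.00347, adjusted 0.0520). Leaving out the 2 libraries most extreme for Th gave r = 0.899. This was the only pair with an adjusted p under 0.05 for r. Drd1 and Adra2a, next by p, varied together at r = 0.916 (exact permutation p = 0.00868, adjusted 0.0651; rho = 0.833, p = 0.0226, adjusted 0.169). Slc6a3 ran opposite to these 2 receptors, without passing the adjustment: r was -0.925 for Slc6a3 and Drd1 (exact permutation p = 0.0139, adjusted 0.0695; rho = -0.738, p = 0.0660, adjusted 0.248), and -0.855 for Slc6a3 and Adra2a (exact permutation p = 0.0191, adjusted 0.0716; rho = -0.786, p = 0.0382, adjusted 0.191). Without the 2 libraries most extreme for Drd1, r of Drd1 and Adra2a was 0.872. Without the 2 most extreme for Slc6a3, its r was -0.709 with Drd1 and -0.715 with Adra2a. Drd1 had 69 to 96 reads per library. Counting error at such depth is larger than its SD within groups, 0.221 CPM in Model and 0.318 in IsoL. The values of r for Drd1 may thus describe counting error, which was not tested. For Drd2 the sign was positive. Its r to Th was 0.433 (exact permutation p = 0.250, adjusted 0.398), with rho = 0.524 (exact permutation p = 0.181, adjusted 0.345). To Slc6a3 r was 0.229 (exact permutation p = 0.825, adjusted 0.825), with rho = 0.476 (exact permutation p = 0.365, adjusted 0.456). Without the 2 libraries most extreme for Th, r to Th was 0.947. Without the 2 most extreme for Slc6a3, r to Slc6a3 was 0.921. Those libraries were not picked by their Drd2 values. Model 2 was lowest of its group for Th and Slc6a3 and highest for Drd1 and Adra2a. IsoL 1 held the same places in its own group. For Drd2 the library furthest from its group was IsoL 2, at 19.3 CPM. Model 2, at 26.2 CPM of Drd2, lay close to the other Model libraries.

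**Figure D4:**
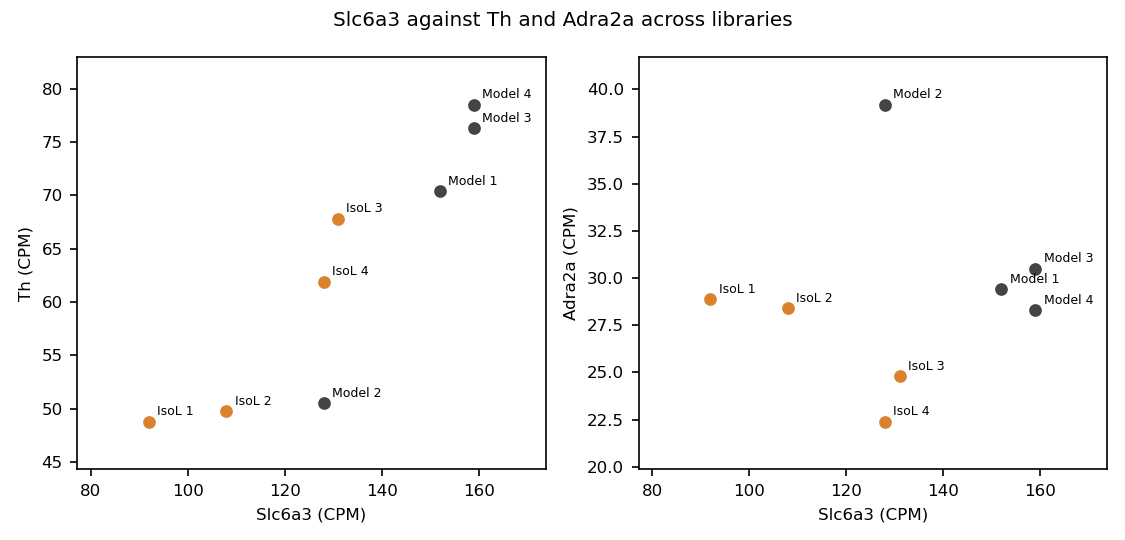
CPM of Th (left) and Adra2a (right) against CPM of Slc6a3, 1 point per library. Th runs with Slc6a3 from IsoL 1 (48.8 and 92.0 CPM) to Model 4 (78.5 and 159 CPM), while Model 2 has the highest Adra2a, 39.2 CPM.

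Searched over all tested genes in the same centred values, the 3 whose pattern was most like each member's over the 8 libraries were as follows, by Pearson's r. Those for Th were Cntnap4 (0.993), Drp2 (0.980) and Apex1 (0.979), and for Slc6a3 Atic (0.986), Plin5 (0.986) and Rtl5 (0.983). For Slc18a2 they were Nagk (0.989), Asb4 (0.981) and Parm1 (0.963). For Drd1 they were Tmem178 (0.998), Nfatc2ip (0.989) and Ufsp2 (0.983), for Drd2 Eps8l1 (0.981), Trp53 (0.971) and Ticam1 (0.958), and for Adra2a Rps26 (0.982), Usp30 (0.982) and Ranbp10 (0.975). No tests are attached, since each was picked as the highest of 14536 and all genes of a library share its depth and its tissue piece. Those for Drd1 rest on 69 to 96 reads of Drd1 per library. None of the 18 was called between the groups, with edgeR adjusted p from 0.138 (Parm1) to 0.955 (Apex1).

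The other genes of catecholamine synthesis, breakdown, transport and reception went both ways. Of 26, 24 were tested, 13 lower and 11 higher in IsoL, with a median log2 fold change of -0.02, and 0 were called by edgeR. At an unadjusted p under 0.05, 7 were lower and 1 was higher, so 8 of 24, against 13.2% of all tested genes. In 3 lower genes (Gch1, Pcbd1 and Adrb1) and 1 higher (Aldh2) the libraries did not overlap, so 4 of 24, against 8.48% of all. The median was -0.19 over 7 tested synthesis and cofactor enzymes, -0.01 over 5 breakdown enzymes, -0.17 over 2 other transporters and -0.01 over 10 other receptors. Pnmt, which makes adrenaline, and Slc18a1, the other vesicular monoamine transporter, had too few reads to test.

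Among the synthesis genes, Pcbd1, which recycles the tetrahydrobiopterin cofactor of tyrosine hydroxylase, had 24.6, 29.4, 23.6 and 23.1 CPM in Model 1 to 4 and 14.9, 18.7, 21.3 and 19.4 in IsoL 1 to 4. All IsoL libraries were below all Model libraries, with a log2 fold change of -0.44 (edgeR adjusted p = 0.113, DESeq2 0.0248). Gch1, the first enzyme of tetrahydrobiopterin synthesis, had 7.69 to 9.77 CPM in Model and 5.39 to 7.49 in IsoL (log2 fold change -0.36, adjusted p = 0.282). Ddc, the decarboxylase that follows tyrosine hydroxylase and also makes serotonin, had 78.7 to 94.3 CPM in Model and 63.0 to 81.5 in IsoL (-0.24, adjusted p = 0.304). Cyb561, which brings reducing power into the vesicles for dopamine beta-hydroxylase, had 56.7 to 67.8 and 53.1 to 59.0 CPM (-0.19, adjusted p = 0.215). Aldh2, which oxidises the aldehydes that monoamine oxidase makes, was the one of the 8 on the higher side, at 53.8 to 65.4 CPM in Model and 69.0 to 71.7 in IsoL (0.19, adjusted p = 0.209). The remaining named genes were Slc22a3, a low-affinity monoamine transporter (5.56 and 3.96 CPM, Model first, log2 fold change -0.48, adjusted p = 0.259), Adra2b, the alpha-2B receptor (5.81 and 4.23 CPM, -0.45, adjusted p = 0.263), and Adrb1, the beta-1 receptor (15.1 and 13.0 CPM, -0.22, adjusted p = 0.335).

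Markers of cell types and regions were read in the same libraries, since the tissue is labelled brain and described as hypothalamus. Midbrain dopamine neuron genes were read, and the 2 most abundant of their list were Aldh1a1 and Ret. Aldh1a1, a marker of some of those neurons, had means of 142 and 134 CPM, Model first. Ret, the receptor subunit for GDNF-family factors, had 138 and 112 CPM. All 12 of the tested genes of that list were lower in IsoL, against 50.5% of all tested genes, with a median log2 fold change of -0.31 and 0 called. En2 barely differed, at 5.51 and 5.49 CPM. Pitx3, the gene of the 13 left untested, had 3 to 21 reads per library. At an unadjusted p under 0.05 there were 5, against 13.2% of all in either direction. In 2, Ret (edgeR adjusted p = 0.0654) and Chrna6 (0.133), IsoL lay lower without overlap, against 4.42% of all. The summed CPM of the list was 417, 414, 434 and 428 in Model 1 to 4 and 325, 327, 385 and 418 in IsoL 1 to 4. IsoL 1 and 2 were thus the lowest for this list, as they were for Th, Slc6a3 and Slc18a2, and IsoL 4 was within the Model range. The list's part in the members' difference was not tested.

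Hypothalamic markers moved in the same direction. Their summed CPM was 274, 239, 270 and 285 in Model 1 to 4 and 99.6, 153, 202 and 171 in IsoL 1 to 4. Of 14 tested genes 12 were lower, against 50.5% of all tested genes, with a median log2 fold change of -0.66. In 7 the IsoL libraries lay lower without overlap, against 4.42% of all. Pmch, the precursor of melanin-concentrating hormone, fell from 34.7 to 18.7 CPM (edgeR adjusted p = 0.0471), Hcrt, the orexin precursor, had 53.8 and 26.3 CPM (0.162), and Trh had 40.8 and 27.0 CPM (0.241). In the opposite direction, dorsal midbrain markers summed to 3.35 to 8.01 CPM in Model and 8.0 to 17.6 in IsoL. All 4 were higher in IsoL and 3 were called (Dmbx1 and Tfap2d, edgeR adjusted p = 0.0434 each, and Mab21l2, 0.0471). Dmbx1 had only 0, 5, 1 and 0 reads in Model 1 to 4. Over all tested genes 0.275% were called, in either direction. Choroid plexus markers summed to 705 and 610 CPM in IsoL 1 and 2, 71.4 in IsoL 3 and 17.5 in IsoL 4, against 18.2 to 25.1 in Model, led by Ttr, the transthyretin gene. Of these 3 sums only the hypothalamic one separated the groups: the dorsal midbrain sums met at their edges, and the choroid plexus sum of IsoL 4 was below every Model library. The choroid plexus sum was highest in IsoL 1 and 2, the libraries lowest for Th, Slc6a3 and Slc18a2. Genes of cortical neurons were also high in those 2 libraries: the transcription factor genes Neurod6 and Neurod2 had 19.8 and 16.2 CPM in IsoL 1 and 14.3 and 12.3 CPM in IsoL 2, against at most 3.19 and 2.38 CPM in the other 6 (edgeR adjusted p = 0.425 and 0.313). The part of these markers in the members' difference was not tested. With IsoL 3 and 4 alone against the 4 Model libraries, a comparison chosen after seeing the data, the log2 fold changes were -0.09 for Th, -0.21 for Slc6a3, -0.22 for Slc18a2, -0.24 for Drd2, -0.43 for Adra2a and -0.12 for Drd1 (edgeR adjusted p from 0.346 to 0.927). This choice drops the libraries lowest for Th, Slc6a3 and Slc18a2 and, within IsoL, highest for Adra2a and Drd1. The shifts of those genes from the full fit were thus set by the choice and say nothing about the markers.

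**Figure D5:**
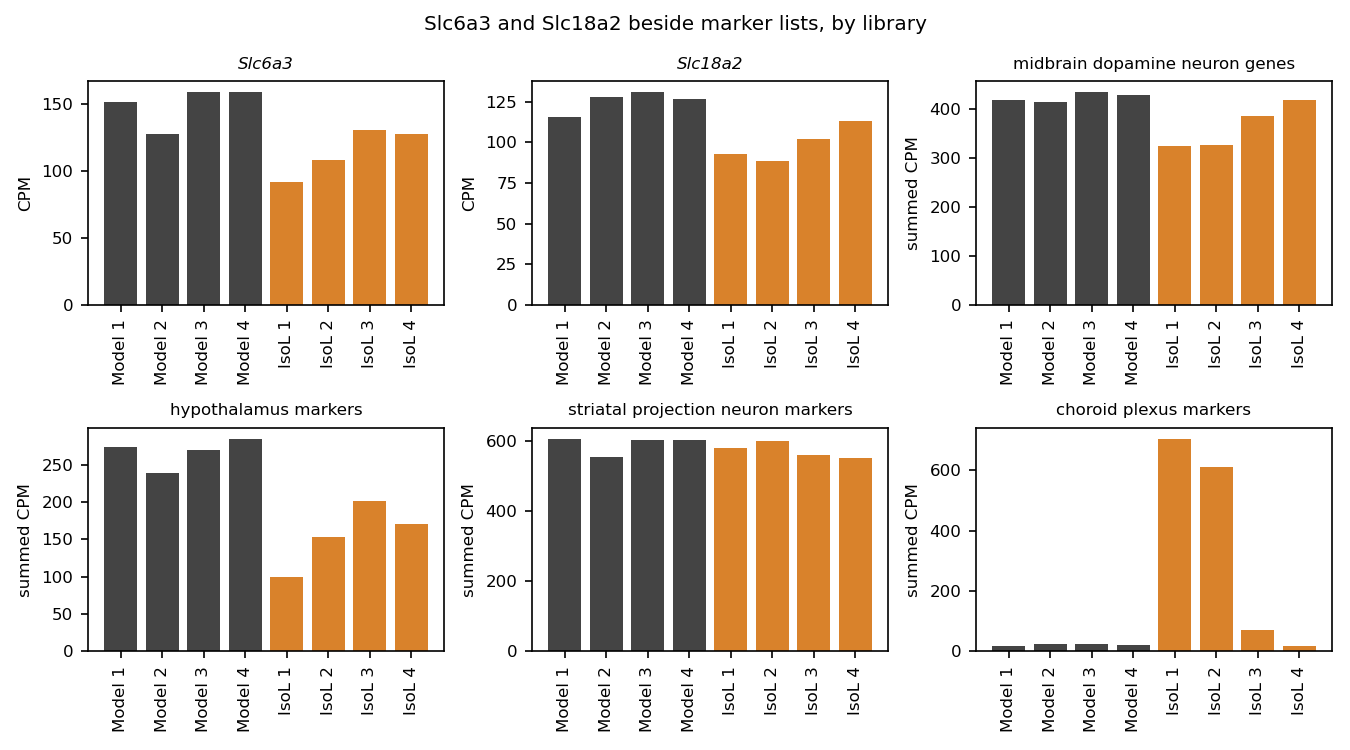
CPM of Slc6a3 and Slc18a2 and summed CPM of 4 marker lists in each library. IsoL 1 and 2 have the lowest Slc6a3 and midbrain dopamine neuron sums and the highest choroid plexus sums, 705 and 610 CPM.

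The summed striatal list overlapped between the groups while single genes in it went both ways. Striatal projection neuron markers, whose cells carry much of the brain's Drd1 and Drd2, summed to 554 to 607 CPM in Model and 553 to 600 in IsoL, with a median log2 fold change of 0.00. Their most abundant genes, Gnal (227 and 222 CPM) and Adcy5 (200 and 184 CPM), are also used by other neurons. Adcy5 was lower in IsoL without overlap (edgeR adjusted p = 0.245), and Ppp1r1b, the DARPP-32 gene, was higher without overlap (13.2 and 18.2 CPM, log2 fold change 0.45, adjusted p = 0.152). Cortex and hippocampus markers summed to 152 to 188 and 153 to 214 CPM, led by Prox1 (99.5 and 90.5) and Wfs1 (49.8 and 48.3). Of their 7 tested genes 4 were lower and 3 higher, and Fibcd1 was higher in IsoL without overlap (12.8 and 19.9 CPM, edgeR adjusted p = 0.110). Thalamus markers summed to 372 to 385 and 351 to 391 CPM, led by Tcf7l2 (227 and 242) and Rgs16 (54.5 and 42.6). Of their 6 tested genes 5 were lower and 1 higher, against 50.5% lower of all tested genes, with a median log2 fold change of -0.19. In 2, among them Rgs16 (edgeR adjusted p = 0.0838), IsoL lay lower without overlap, against 4.42% of all. Hox genes, which mark the hindbrain behind its most anterior segment and so do not mark the locus coeruleus, the main noradrenaline cell group, summed to at most 0.0699 CPM in Model and 0.184 in IsoL, with Hoxa3, Hoxb3, Hoxc4, Hoxd3 and Hoxd4 at 0 in all 8 libraries. Pituitary Gh and Prl were at 0 throughout, and that list, led by Tshb (3.90 and 4.65 CPM), reached at most 7.07 CPM. Astrocyte markers, led by Slc1a2 (1920 and 2200 CPM) and Gja1 (347 and 361), summed to 2480 to 3050 CPM in Model and 3120 to 3200 in IsoL, without overlap. Oligodendrocyte markers, with Mbp at 5540 and 5930 CPM, summed to 11800 to 12200 and 11900 to 13100 CPM.

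Immediate early genes, which neurons switch on with activity, were lower in IsoL in 9 of 9 tested, against 50.5% of all tested genes. The median log2 fold change was -0.42. Of the 9, 4 were called lower, against 0.158% of all. These were Fos, from 39.7 to 22.1 CPM (edgeR adjusted p = 0.00486), Egr1, from 77.9 to 46.1 (0.0345), Nr4a1, from 23.2 to 17.5, and Dusp1, from 31.6 to 23.2 (0.0471 each). The sums over the list were 211 to 246 CPM in Model and 139 to 177 in IsoL. In IsoL 1 to 4 the sums were 167, 177, 150 and 139 CPM, beside 92.0, 108, 131 and 128 CPM of Slc6a3. The relation between the list and Slc6a3 was not tested. The Y-linked genes Ddx3y, Uty, Kdm5d and Eif2s3y were read in all 8 libraries (Ddx3y means 148 and 156 CPM), which goes against the stated female sex, with sums of 301 to 354 CPM in Model and 311 to 344 in IsoL. Summed gene counts were 14262836 to 15886850 in Model and 15731923 to 21620466 in IsoL.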

How the data were processed

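Polyadenylated RNA was sequenced in 8 mouse brain libraries. Per the labels, libraries were made from 3 µg of RNA with 15 PCR cycles and a size selection of 400 to 500 bp. They do not mention strand, so a gene and its antisense partner cannot be told apart. The submitters' processing notes name fastp 0.22.0, HISAT2 2.1.0 and HTSeq 0.9.1, without their roles. The sources used here do not name the genome build, and 0 of the 9 members start where GRCm38 has them, so gene coordinates are the deposited table's own and promoter coordinates are those of GRCm38.p6.

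The deposited table holds raw read counts per gene, per the file headers, and these were used for all tests. It also holds the authors' deposited FPKM, which follow from the counts, the table's other deposited value, gene length, and the summed counts within a relative difference of 1.11e-09 for genes of at least 200 counts. The 51 genes without a symbol stayed in the fit. Genes detected numbered 16669 to 17183 per library. No 2 libraries of a group were duplicates (chi-square per degree of freedom at least 2.58); pairs with Model 2 differed most, at 11.4 to 15.9.

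Counts were filtered with filterByExpr (14536 genes kept), scaled by TMM (factors 0.983 to 1.01) and tested in R 4.3.3 by the quasi-likelihood F-test of edgeR 4.0.16 (robust setting), without covariates and Benjamini-Hochberg adjustment over all tested genes at 0.05. The biological coefficient of variation was 9.06%. CPM divides counts by the TMM-scaled total. The test was checked on simulated counts. DESeq2 1.42.0, limma voom 3.58.1 with quality weights, DESeq2 size factors, no filter, a replicate block, a threshold of 0.1 and each library left out were alternatives, and IsoL 3 and 4 alone was added after seeing the data. Plots used matplotlib 3.10.9 (Python 3.11.15).

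The members, the gene lists and the tests were chosen with earlier results of these data known. Named were all 9 members; of the pathway lists the 8 tested genes with the smallest p; of each marker list those at 0 in all libraries, those that passed and the 2 with the highest mean CPM; and for each member of at least 1 CPM the 3 genes of highest r. Arc, Chrna6, En2, Pitx3, Neurod2, Neurod6, Fibcd1, Ppp1r1b, Uty, Kdm5d and Eif2s3y were named after their values were seen. Lhb has 2 rows in the table. Of the genes this rule names, 2 are not reported here.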

Additional observations from a re-analysis of the deposited data

Results flagged for a closer look

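In groups of 4 libraries, a library was singled out when its gap to the nearest other was above the critical value of Dixon's test at 95%, which chance gives in about 1 of 20 groups; 5 of 70 groups met it. In Model 2, Drd1 was at 5.25 CPM, against 4.80 to 4.82 in the other Model libraries. Aldh2 in Model 2 was at 53.8 CPM, against 63.8 to 65.4. The summed CPM of striatal projection neuron markers in Model 2 was 554, against 603 to 607, and that of oligodendrocyte markers was 12200, against 11800. In Model 3, Adra2b was at 5.08 CPM, against 5.97 to 6.13 in the others. Thus 4 of the 5 fall in Model 2, the library that also had the lowest Th and Slc6a3 and the highest Adra2a of its group.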

How the results depend on the processing

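All 6 tested members kept a negative sign under each alternative run. Slc18a2 crossed the 0.05 threshold at an unchanged log2 fold change of -0.34 with no filter on low counts (adjusted p = 0.0406), in DESeq2 (0.00348) and in limma voom (0.0254), and passed at a threshold of 0.1. Slc6a3 crossed it in DESeq2 (-0.38, adjusted p = 0.0255) and Drd2 in limma voom (-0.30, adjusted p = 0.0451). With 1 library left out in turn, log2 fold changes ran from -0.41 to -0.28 for Slc18a2, -0.45 to -0.29 for Slc6a3, -0.39 to -0.20 for Th, -0.31 to -0.23 for Drd2, -0.34 to -0.17 for Adra2a and -0.08 to -0.01 for Drd1. The number of genes called was 40; it was 74 with no filter, 305 in DESeq2, 238 in limma voom, 138 at a threshold of 0.1, 6 to 146 with 1 library left out, and 31 with IsoL 3 and 4 alone. Of the other catecholamine genes, DESeq2 called 1, Pcbd1, against 0 in edgeR. The cause of these shifts was not tested. The calls among marker and immediate early genes were not recomputed without single libraries.

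With the replicate number as a block, 17 genes were called and no member: the log2 fold change was -0.27 for Th (adjusted p = 0.204), -0.39 for Slc6a3 (0.0872), -0.34 for Slc18a2 (0.0650), -0.05 for Drd1 (0.928), -0.29 for Drd2 (0.159) and -0.28 for Adra2a (0.204), and 0 of the other catecholamine genes were called. The libraries share only a number: same-numbered libraries correlated at 0.0199 to 0.0696, and 1 of 4 matched its own number best. Dbh, Slc6a2 and Drd4 had at most 5 reads in a library, too few for a fold at this depth.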
